A study of Mus musculus with 8 samples.

Results

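H3K4me3 peaks of non-treated (NT) dendritic cells (DCs) that had no counterpart after curdlan but had one after curdlan with FK506 numbered 435 of 15799 NT peaks. They were selected on the peak lists themselves: an NT peak was taken when it overlapped no peak of the curdlan list and at least 1 peak of the curdlan with FK506 list, with an overlap of 1 bp or more. The gain or loss of a peak is therefore how the regions were chosen and not a finding, and an absent peak means that the region did not pass the peak caller's threshold in that library, not that the mark was absent. The 435 regions are called curdlan-absent/FK506-present peaks, and they were mostly weak, mostly far from gene starts, and close in number to the opposite class.

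The cells were D1, a long-term line of splenic DCs of strain C57BL/6. H3K4me3 was mapped in NT cells, in cells given 10 μg/ml curdlan for 2 h and in cells given curdlan with FK506 for 2 h, and the FK506 dose of that library is not given in the sources used here. NFATc2, which the labels call NFAT1, was mapped through a V5 tag in D1 cells given 10 μg/ml curdlan for 30 min. The tagged line was made with a lentiviral vector, and cells with low expression of the vector's fluorescent marker were sorted and expanded, so it is 1 selected population with added NFATc2. For each condition there was a single ChIP library with a matched input. No spread between replicates could be measured, no p-value between conditions was computed, and every interval below is a 95% Wilson interval that covers counting error over peaks only.

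H3K4me3, the trimethylation of lysine 4 of histone H3, is deposited mainly around the starts of active genes, and weaker H3K4me3 is also found at some enhancers. Curdlan is a fungal-type β-glucan that is bound by dectin-1, a receptor of DCs and macrophages, whose signalling through the kinase Syk raises cytosolic calcium. Calcium activates the phosphatase calcineurin, which lets NFAT proteins enter the nucleus. FK506 bound to its immunophilin inhibits calcineurin and so keeps NFAT out of the nucleus.

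The DNA of 4 of these regions is shown, all among those with the most NT tags. For 3 of them the sequence is the 200 bp around the NFATc2 summit that lies inside the H3K4me3 peak, and for Ccdc93, which held no NFATc2 summit, it is the 200 bp around the H3K4me3 summit. Sequences are the plus strand of mm9, 5′ to 3′, and capitals mark GGAAAA (a core NFAT motif, here as its reverse complement TTTTCC) and TGACTCA (an AP-1 motif) on either strand. The windows are chr5:139533912-139534111 in an intron of Prkar1b, chr10:79834663-79834862 beside the non-coding transcript Gm15123, chr12:33855027-33855226 in an intron of Atxn7l1 and chr1:123359006-123359205 in an intron of Ccdc93.
Prkar1b: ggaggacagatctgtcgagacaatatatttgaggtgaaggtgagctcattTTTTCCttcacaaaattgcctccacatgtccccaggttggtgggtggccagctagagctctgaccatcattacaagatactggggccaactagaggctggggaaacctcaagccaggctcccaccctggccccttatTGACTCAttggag
Gm15123: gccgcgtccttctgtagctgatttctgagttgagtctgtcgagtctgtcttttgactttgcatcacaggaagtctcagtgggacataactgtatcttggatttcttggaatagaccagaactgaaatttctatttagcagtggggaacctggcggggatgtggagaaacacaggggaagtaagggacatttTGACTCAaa
Atxn7l1: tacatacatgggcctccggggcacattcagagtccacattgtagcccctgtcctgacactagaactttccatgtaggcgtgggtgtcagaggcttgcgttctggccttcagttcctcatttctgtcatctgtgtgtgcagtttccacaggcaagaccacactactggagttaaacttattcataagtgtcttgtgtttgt
Ccdc93: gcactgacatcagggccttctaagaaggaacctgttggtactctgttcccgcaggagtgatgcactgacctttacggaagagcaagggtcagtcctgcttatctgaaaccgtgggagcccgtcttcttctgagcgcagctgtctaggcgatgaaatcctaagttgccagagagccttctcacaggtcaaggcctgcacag
The Prkar1b window held 1 GGAAAA and 1 TGACTCA, the Gm15123 window held 1 TGACTCA, and the other two windows held neither. Around the 69 NFATc2 summits inside curdlan-absent/FK506-present peaks, GGAAAA was found in 46.4% of 200-bp windows (35.1 to 58.0%), and over all 9438 NFATc2 summits in 45.5%. TGACTCA was found in 17.4% (10.2 to 28.0%) and 16.9%, and GAGGAAGT (a PU.1-type motif) in 4.35% (1.49 to 12.0%) and 9.23%. Windows around the NFATc2 summit at Prex1 and around the H3K4me3 summit at Pik3cg were read as well and are not printed. Both regions were also among those with the most NT tags, and their windows held neither GGAAAA nor TGACTCA. A match to these letters is a description of the window and not evidence of a bound site.

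The D1 lists had the promoter marks of DCs. An H3K4me3 peak lay within 1 kb of a transcription start site (TSS) for 18 of 23 annotated DC markers in NT cells, 16 after curdlan and 18 after curdlan with FK506, against 1 of 12 T cell markers, 1 of 10 B cell markers, 0 of 12 fibroblast markers and 2 of 11 neuron markers in each list. The libraries differed in depth and in the ratio of ChIP to input tags, which was 1.38 for NT (16662316 ChIP tags), 2.29 after curdlan (21289349) and 1.96 after curdlan with FK506 (19468498). The lowest fold enrichment in a list moved with that ratio, at 4.65 for NT, 7.75 after curdlan and 6.01 after curdlan with FK506. The part of these depth differences in which peaks were present or absent was not tested.

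Peaks without a curdlan counterpart were nearly as frequent as peaks without a curdlan with FK506 counterpart. Of all NT peaks, 7.98% (1261) overlapped no curdlan peak and 8.47% (1338) overlapped no curdlan with FK506 peak. The 435 curdlan-absent/FK506-present peaks were 2.75% of NT peaks (2.51 to 3.02%). The opposite class, with a curdlan peak and no curdlan with FK506 peak, held 512 peaks or 3.24% (2.98 to 3.53%), so more NT peaks showed the reverse pattern than the chosen one. A further 826 NT peaks (5.23%) had neither counterpart, and 14026 had both. Of the 1261 NT peaks without a curdlan peak, 34.5% (31.9 to 37.2%) had a curdlan with FK506 peak, while of the 1338 without a curdlan with FK506 peak 38.3% (35.7 to 40.9%) had a curdlan peak. By chromosome the 435 peaks were spread over all autosomes and X, from 1.52% of NT peaks on chromosome 7 to 4.05% on chromosome 12, and only 5 neighbouring pairs had summits within 20 kb of each other.

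The curdlan-absent/FK506-present peaks were weak in NT cells. They had a median of 88 NT tags (quartiles 56 and 128.5, range 21 to 777), a fold enrichment over input of 11.1 (5.39 to 38.7) and a length of 1460 bp. NT peaks with both counterparts had a median of 532 tags, a fold of 37.8 and a length of 2516 bp. The opposite class, with medians of 82 tags and a fold of 10.7, was as weak, and peaks with neither counterpart were weaker still, with 66 tags and a fold of 9.96. Because tag count enters the peak call itself, these values describe the class and test nothing. Of the 435 peaks, 50.8% (221) reached a p-value of 1e-10 in the NT list, 59.1% (257) had an NT FDR of 5% or less, and 59 (13.6%) had an NT fold below the lowest fold of any curdlan peak. The share of peaks below that fold was 13.1% in the opposite class and 0.948% in peaks with both counterparts.

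The share of NT peaks in the chosen class was lower at every step up in NT tag count. It was 13.7% (11.2 to 16.6%) of the 636 NT peaks with 18 to 49 tags, 10.5% of those with 50 to 99, 7.90% with 100 to 149, 4.68% with 150 to 199, 1.36% with 200 to 299 and 0.0921% (9 of 9775 peaks) with 300 or more. The opposite class followed the same order, from 16.5% (13.8 to 19.6%) in the weakest group to 0.0716% in the strongest, and the intervals of both classes overlapped in every group. For NT peaks with neither counterpart the shares at both ends were 43.1% and 0.0205%. The 10 members with the fewest NT tags had 21 to 27 NT tags and 30 to 53 tags after curdlan with FK506, and 5 of them lay within 1 kb of a TSS.

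**Figure D1:**
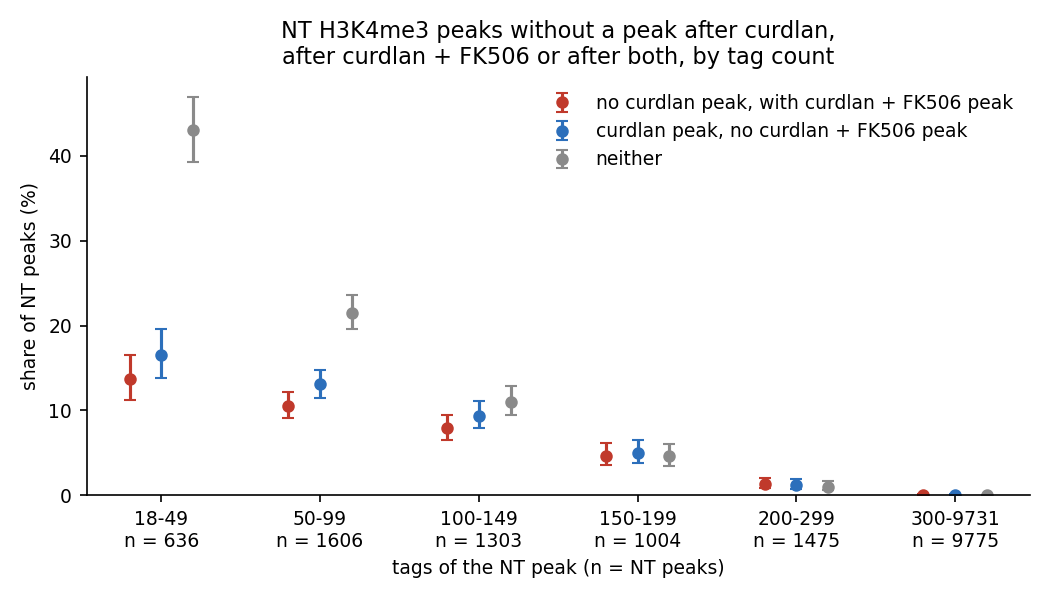
Share of NT H3K4me3 peaks (%, linear axis) in each group of NT tag counts that lacked a curdlan peak but had a curdlan with FK506 peak (red), had a curdlan peak but no curdlan with FK506 peak (blue) or had neither (grey), with bars for the 95% Wilson interval. Red and blue intervals overlap in all groups, and both classes drop from over 10% below 100 tags to under 0.1% at 300 tags or more.

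Strong members were few: 29 of the 435 had 200 or more NT tags. The strongest lay in an intron of Ccdc93, which encodes a subunit of the CCC complex of endosomal recycling, 28.7 kb upstream of the nearest annotated TSS of that gene (peak chr1:123356042-123362373). It had 777 tags in NT cells and 489 after curdlan with FK506, and the nearest curdlan peak was 26.6 kb away. The second lay in an intron of Prkar1b, a regulatory subunit of protein kinase A, with 559 NT tags and 836 after curdlan with FK506, and its nearest curdlan peak was 57.5 kb away. Both had several times the upper quartile of members in NT tags, and neither had a curdlan peak in its neighbourhood.

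Other strong members lay at genes of signalling proteins, grouped here after their values were seen and with no test of the grouping. At Pik3cg, which encodes the catalytic subunit of the leucocyte-enriched phosphoinositide 3-kinase gamma, the summit was 356 bp downstream of a TSS, with 421 NT tags and 380 after curdlan with FK506. Its NT fold was low, at 5.80, and a curdlan peak with 1405 tags lay 1.27 kb from its edge. In an intron of Pdcd1lg2, which encodes the PD-1 ligand PD-L2, 43.9 kb downstream of the TSS, there were 324 NT tags and 438 after curdlan with FK506. An intronic peak of the Src-family kinase gene Fyn had 310 and 213 tags, a peak 16.3 kb upstream of Prex1 (a Rac exchange factor of leucocytes) had 306 and 305, and an intronic peak of Gnaq (a G protein alpha subunit) had 301 and 232. A peak 16.2 kb downstream of the TSS of Socs1, the cytokine signalling inhibitor, had 289 and 148. The nearest curdlan peak was 52.4 kb away at Pdcd1lg2, 37.4 kb at Fyn, 9.58 kb at Prex1, 2.83 kb at Gnaq and 9.42 kb at Socs1. The Gnaq peak was strong in tags only. Its NT fold of 6.11 was, like that of Pik3cg, below the lowest curdlan fold of 7.75. Its FDR was 6.61% in the NT list and 5.66% in the curdlan with FK506 list.

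The rest of the 15 strongest lay at genes of varied function. An intronic peak of the kinase gene Vrk1 had 338 NT tags and 173 after curdlan with FK506, but a curdlan peak began only 72 bp from its edge. The peak at Gm15123, whose summit was 239 bp upstream of the TSS and 10.3 kb from that of the RNA-binding protein gene Mex3d, had 300 and 175 tags. Peaks at Mib1 (an E3 ligase of Notch ligands, 96.2 kb from the TSS) had 290 and 195 tags, at Cdyl (a chromodomain co-repressor) 272 and 195, and at Cradd (a death-domain adaptor) 271 and 205. Those at Tub had 270 and 164 tags and at Atxn7l1 265 and 235. The NT fold at Cradd, 7.23, was also below the lowest curdlan fold, and the curdlan with FK506 peak at Gm15123 had an FDR of 11.5%. Of these 15 peaks, Prkar1b and Pdcd1lg2 had more tags after curdlan with FK506 than in NT cells, although the curdlan with FK506 library held more tags in all. Their curdlan with FK506 peaks were also longer, 5707 against 4414 bp at Prkar1b and 4011 against 3642 bp at Pdcd1lg2. Tags per kb of peak, scaled to the library's ChIP tags, had a ratio to NT of 0.990 at Prkar1b and 1.05 at Pdcd1lg2.

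**Figure D2:**
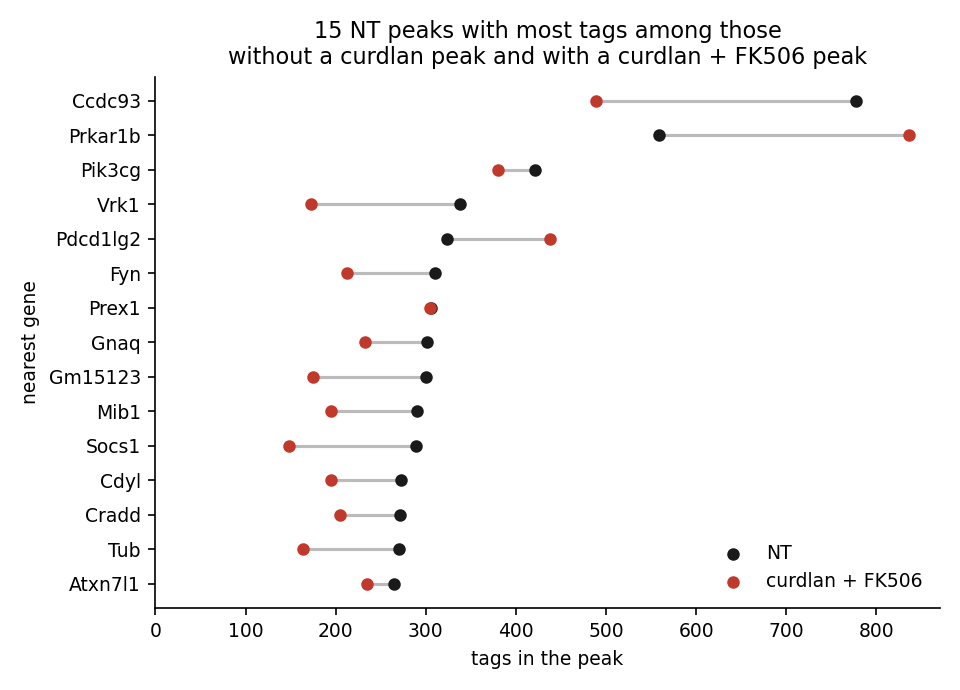
Tags in the peak (linear axis from 0, not scaled for depth) for the 15 curdlan-absent/FK506-present peaks with most NT tags, by nearest gene, in the NT library (black) and the curdlan with FK506 library (red), 1 library each. Prkar1b (559 and 836) and Pdcd1lg2 (324 and 438) are the rows with the red point clearly to the right. Scaled for depth and peak length, their ratios to NT were 0.990 and 1.05.

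After curdlan with FK506 the same regions were again weak peaks. Their median was 86 tags (28 to 2624) and a fold of 16.2 (7.64 to 105), and 152 of 435 reached a p-value of 1e-10 there. The FK506 peak covered a median of 94.0% of the NT peak, 432 of 435 were covered for 50% or more, and in 330 (75.9%) the summits of both lists lay within 100 bp of each other. Overlap of 1 bp or more was used to choose the peaks, so these values describe the class and test nothing. Coverage and summit distance were not set beside those of the other classes. Tag density, the tags per kb of peak scaled to the library's total of ChIP tags, had a ratio of curdlan with FK506 to NT with a median of 0.871 (0.413 to 7.16). This was the level of NT peaks with both counterparts, whose median ratio was 0.864, and of the opposite class, whose ratio of curdlan to NT had a median of 0.858. The density was higher after curdlan with FK506 than in NT cells in 111 of the 435 peaks, over 1.5 times higher in 13 and lower by more than the same factor in 59.

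The peaks with the highest ratios adjoined larger peaks. At 10 members the curdlan with FK506 peak also reached a curdlan peak and another NT peak, so that 1 region had been called as separate peaks in NT cells and as a single one after curdlan with FK506. These were at Napsa, Eif1ax, Dusp6, Cmtm7, Gatad1, Atp2b1, Hlcs, Mapre1, Ptbp2 and Gm10284, and 9 of the 13 ratios over 1.5 were among them. At Napsa, an aspartic protease gene, the NT peak had 50 tags and the curdlan with FK506 peak 1187 (ratio 7.16), with a curdlan peak of 1527 tags 95 bp away. At Eif1ax, a translation initiation factor gene, there were 28 and 727 tags (ratio 5.86) and a curdlan peak of 886 tags 35 bp away. At Dusp6, a phosphatase gene of the ERK pathway, there were 61 and 2624 tags (ratio 3.81) and a curdlan peak of 2911 tags 560 bp away. Peaks in an intron of Cmtm7 (106 and 1466 tags, ratio 3.40) and upstream of Gatad1 (40 and 832 tags, ratio 2.96) were of the same kind. Without these 10 peaks the median ratio was 0.866 and the highest 1.94.

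Low ratios were found at distal and promoter peaks alike. An intronic peak of Lrp1b, a lipoprotein receptor-related gene, had 57 and 41 tags (ratio 0.413). Intronic Sirt2 had 133 and 71 tags (ratio 0.490), a peak 17.8 kb upstream of Lsr had 110 and 57 (ratio 0.504), and the TSS peak of Scel had 100 and 84 (ratio 0.508). The nearest curdlan peak was 65.1 kb away at Lrp1b.

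**Figure D3:**
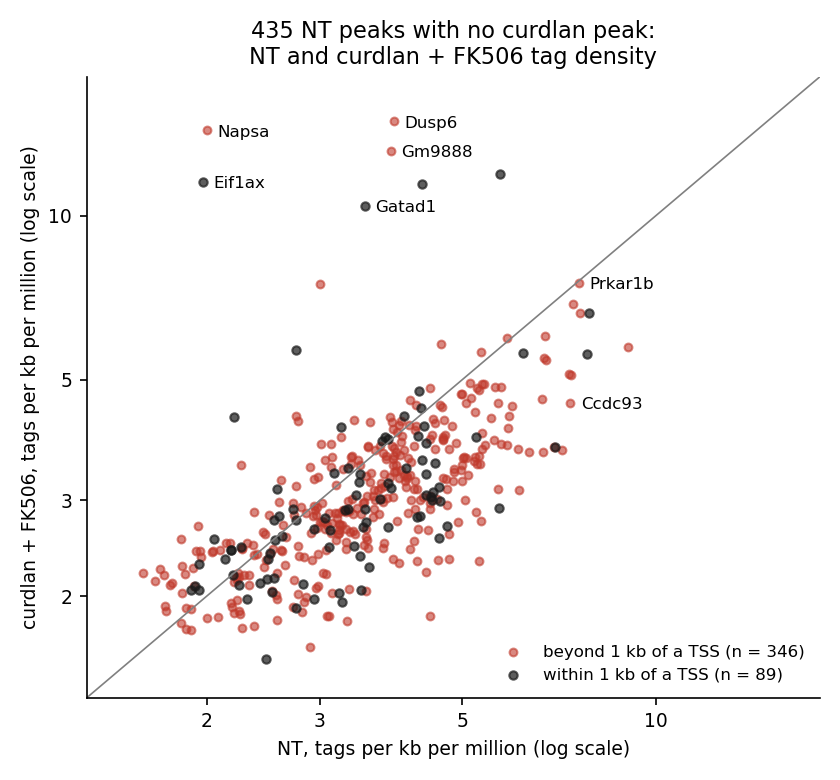
Tag density (tags per kb of peak scaled to the total of ChIP tags, log scale on both axes) of the 435 curdlan-absent/FK506-present peaks in NT cells (x) and after curdlan with FK506 (y), in black where the summit was within 1 kb of a TSS (n = 89) and in red elsewhere (n = 346), with the line of equality. Most points lie a little below the line, at a median ratio of 0.871, and the labelled points high above it (Napsa, Eif1ax, Dusp6, Gm9888 in Cmtm7, Gatad1) are NT peaks merged into a larger curdlan with FK506 peak.

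The distance to the nearest curdlan peak had a median of 16.7 kb (0.035 to 1448 kb). It was within 1 kb for 45 members (10.3%), within 5 kb for 110 and over 100 kb for 60. Near misses were a larger share of the members at gene starts than elsewhere. A curdlan peak lay within 1 kb for 24 of 89 members within 1 kb of a TSS (27.0%, 18.8 to 37%). It did so for 21 of 346 elsewhere (6.07%, 4.0 to 9.10%). In the opposite class a curdlan with FK506 peak was as close for 28.9% (21.6 to 37.6%) and 8.95% (6.51 to 12.2%). The curdlan peaks beside the 45 members had a median of 615 tags, near the 581 of all curdlan peaks, whereas those 45 NT peaks had a median of 72 tags. Genes with such a promoter-edge peak included Rif1, Dnmt3b, Tfdp1, Csnk2a2, Ppp2ca and Zmiz2. At the limit of the rule, the closest gaps to a curdlan peak were 35 bp at Eif1ax, 72 bp at Vrk1 and 95 bp at Napsa, and the smallest overlaps just outside it were 40 bp at Arhgap4 (38 tags), 290 bp at Gm2228 (25 tags) and 348 bp at Maz (45 tags). The smallest overlap with a curdlan with FK506 peak among members was 85 bp, at Napsa, and the nearest miss was a gap of 21 bp at Ssh1 (40 tags).

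Most members lay away from gene starts. The summit was within 1 kb of a TSS in 89 of 435 (20.5%, 16.9 to 24.5%), in an intron in 167 (38.4%), in an exon in 19 (4.37%) and between genes in 160 (36.8%). The median distance to a TSS was 8271 bp, and 25 members were over 100 kb from any TSS. The opposite class had a TSS share of 23.6% (20.2 to 27.5%), whose interval overlaps that of the members, and peaks with neither counterpart had 15.6% (13.3 to 18.3%). NT peaks with both counterparts had 75.9%. Among NT peaks with 56 to 128 tags, the range between the quartiles of the members, the shares were 18.3% (13.8 to 24.0%) for members, 20.9% for the opposite class, 10.3% for peaks with neither and 46.2% (43.6 to 48.9%) for peaks with both. At these tag counts the interval of the members still lay below that of peaks with both counterparts, and the opposite class had a similar share. The same tags did not mean the same enrichment: the median NT fold was 11.0 for members, 10.3 for the opposite class and 16.7 for both. A p-value of 1e-10 was reached in the NT list by 51.8% of these members and 85.0% of these peaks with both. The part of this difference in the TSS shares was not tested. Exons held 8 peaks (1.56%, 0.794 to 3.05%) of the opposite class, and the interval of the members (2.81 to 6.72%) overlapped this. Among peaks with 56 to 128 tags the exon intervals did not overlap. Exons held 13 members (5.96%, 3.52 to 9.93%) and 3 peaks of the opposite class (1.19%, 0.404 to 3.43%) there. Peaks with neither counterpart had 4.02% (2.49 to 6.43%). These are small counts and the difference was not tested.

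**Figure D4:**
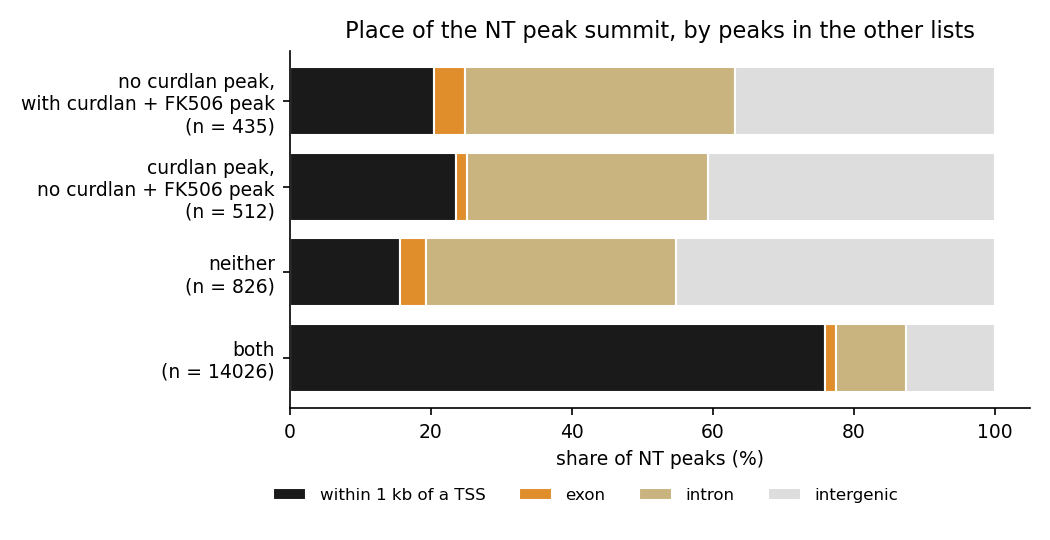
Share of NT peaks (%, linear axis) with their summit within 1 kb of a TSS (black), in an exon (orange), in an intron (tan) or between genes (light grey), in 4 classes set by the presence of a curdlan and a curdlan with FK506 peak. The TSS share is 20.5% in curdlan-absent/FK506-present peaks and 23.6% in the opposite class, against 75.9% where both peaks were present.

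Seen from the side of all NT peaks, 346 of the 4815 beyond 1 kb of a TSS (7.19%, 6.49 to 7.95%) and 89 of the 10984 at a TSS (0.810%, 0.659 to 0.996%) were members. At 100 to 149 tags the shares were 10.3% (8.44 to 12.6%) and 3.48% (2.15 to 5.57%), and at 18 to 49 tags 14.9% and 11.6%, with overlapping intervals. Members at a TSS had fewer NT tags, with a median of 70 against 91 elsewhere, and the same ratio of curdlan with FK506 to NT density (0.872 against 0.867).

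The promoter peaks among the members belonged to genes of varied function. With NT tags first and tags after curdlan with FK506 second, they included the interferon-inducible Slfn1 (189 and 199), the chromatin remodelling subunit Baz1a (155 and 191), the cholesterol transporter gene Npc1 (148 and 151), the actin regulator Wipf1 (128 and 128) and the lipase inhibitor Angptl4 (116 and 119). Weaker ones lay at Tradd, the adaptor of TNF receptor signalling (75 and 73), at Adrb1, the beta-1 adrenergic receptor (82 and 105), and at Il12rb2, a chain of the IL-12 receptor (49 and 49). These genes, like Rif1 and the others named for their promoter-edge peaks, were picked from the 89 after their values were seen. Other promoter members, picked in the same way, had fewer tags after curdlan with FK506: Gm10384 (150 and 79), Celf5 (149 and 109), Wdr63 (145 and 98) and S100a5 (139 and 85). The tags are not scaled for depth or peak length. The density ratio of curdlan with FK506 to NT was 0.842 at Slfn1, 0.945 at Baz1a, 0.748 at Npc1, 0.795 at Wipf1 and 0.880 at Angptl4.

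Genes nearest to distal members mostly kept a promoter peak in all lists. Of the 341 protein-coding genes nearest to members beyond 1 kb of a TSS, 67.7% had an H3K4me3 peak within 1 kb of a TSS in NT cells, 67.2% after curdlan and 67.7% after curdlan with FK506, and 63.9% had one in all lists. Over all 22208 protein-coding genes the shares were 46.7%, 46.2%, 46.2% and 44.8%. The fold enrichment of the promoter peak of those 341 genes had a median log2 ratio of curdlan to NT of 0.73 against 0.74 over all genes, and of curdlan with FK506 to NT of 0.51 against 0.46. In both ratios the medians of these genes and of all genes were close. Fold enrichment itself moved with the library. The median fold over all peaks was 34.6 for NT, 58.6 after curdlan and 48.4 after curdlan with FK506. The ratio of ChIP to input tags, at 1.38, 2.29 and 1.96, had the same order. These log2 ratios are therefore not read as a rise of the mark. The depth-scaled tag density of peaks with both counterparts had a median ratio of curdlan with FK506 to NT of 0.864.

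Over all 22208 protein-coding genes, 421 (1.90%) were the nearest protein-coding gene of a member, and 83 (0.374%) had a member summit within 1 kb of a TSS. At 1.90%, fewer than 1 gene would be met in a list of the sizes given here, so a count of 0 is near the background and nothing is read from it. Of 21 cytokines, 20 chemokines, 25 genes of NFAT and calcineurin, 15 AP-1 subunits and 12 Toll-like receptors, 0 were the nearest protein-coding gene of a member. A member was nearest to 2 of 18 genes of antigen presentation and costimulation (Pdcd1lg2 and Icosl), 2 of 14 of the NF-κB pathway (Rela and Ikbkb), 3 of 19 chemokine receptors (Ccr7, Ccrl2 and Cxcr4), 2 of 23 DC markers (Zbtb46 and Ccr7) and 1 of 21 interferon-stimulated genes (Rsad2). All of these members lay beyond 1 kb of the listed gene's TSS. These shares lie above 1.90%, but they rest on 1 to 3 genes a list and were not tested.

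Values at these listed genes are given as NT tags, then tags after curdlan with FK506. For the chemokine receptors, a peak 13.2 kb upstream of Ccr7, the receptor that guides DCs to lymph nodes, had 145 and 162 tags. The peak nearest Ccrl2, an atypical chemoattractant receptor gene 28.7 kb away, had 244 and 289, and that nearest Cxcr4, 43.1 kb away, had 124 and 129. For costimulation, a peak 17.6 kb from Icosl, the ligand of ICOS on T cells, had 114 and 151. In NF-κB signalling, a peak 11.3 kb from Rela (the p65 subunit) had 184 and 143 tags, and an intronic peak of Ikbkb (the kinase IKK-beta) had 59 and 62. A peak in an intron of Zbtb46, a transcription factor of classical DCs, had 224 and 225 tags, and one 4.04 kb upstream of the antiviral gene Rsad2 had 33 and 45. The tags of both libraries were close at most of these genes, and 1 library each gives no error for any difference. These counts are not scaled for depth or peak length. The density ratio of curdlan with FK506 to NT was 0.690 at Rela, 0.821 at Zbtb46 and 0.842 at Ccr7. It was 0.903 at Cxcr4, 0.926 at Ccrl2 and 1.15 at Icosl, so higher tags were not always a higher density.

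Gene families were represented by few members each. The nearest protein-coding gene was a zinc finger gene (Zfp) for 5 members (1.15%, 0.492 to 2.66%) and 2.44% of peaks with both counterparts. It was an Slc transporter for 3 members (0.690%, 0.235 to 2.01%) and 1.58% of peaks with both, a voltage-gated channel subunit for 3 members (0.690%, 0.235 to 2.01%) and 0.221% of peaks with both, and an interleukin receptor (Il12rb2 and Il1rl1) for 2 members (0.460%, 0.126 to 1.66%) and 0.193% of peaks with both. The shares of the opposite class for these families were 1.17%, 1.17%, 0.977% and 0.781%, each inside the interval of the members. At 2 to 5 members a family, counting error is wide and nothing particular to the members is read from these shares.

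NFATc2 sites were near the members as often as near the opposite class. An NFATc2 summit lay within 20 kb of the H3K4me3 summit for 176 of 435 members (40.5%, 36.0 to 45.1%), 212 of 512 peaks of the opposite class (41.4%, 37.2 to 45.7%), 43.8% (40.5 to 47.2%) of peaks with neither counterpart and 36.3% (35.5 to 37.1%) of peaks with both. An NFATc2 summit lay inside the peak for 68 members (15.6%, 12.5 to 19.3%), 16.2% of the opposite class, 19.4% of peaks with neither and 13.0% of peaks with both. Among peaks with 56 to 128 tags and beyond 1 kb of a TSS, the share within 20 kb was 48.9% (41.6 to 56.2%) for members, 48.0% (41.2 to 54.9%) for the opposite class, 56.0% (50.8 to 61.1%) for neither and 29.2% (26.0 to 32.5%) for both. In this range of tags and away from a TSS, the interval of the members lay above that of peaks with both counterparts and almost coincided with that of the opposite class, which kept a peak after curdlan and lacked one after curdlan with FK506. Enrichment still differed there, with a median NT fold of 10.7 for members, 9.975 for the opposite class and 14.5 for peaks with both. The part of this difference in the NFATc2 shares was not tested. The NFATc2 library came from the tagged line after 30 min of curdlan, and both treated H3K4me3 libraries from 2 h. The labels name the H3K4me3 cells D1, the sources used here do not state whether these were parental or tagged, and NFATc2 binding with FK506 was not measured in these files.

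**Figure D5:**
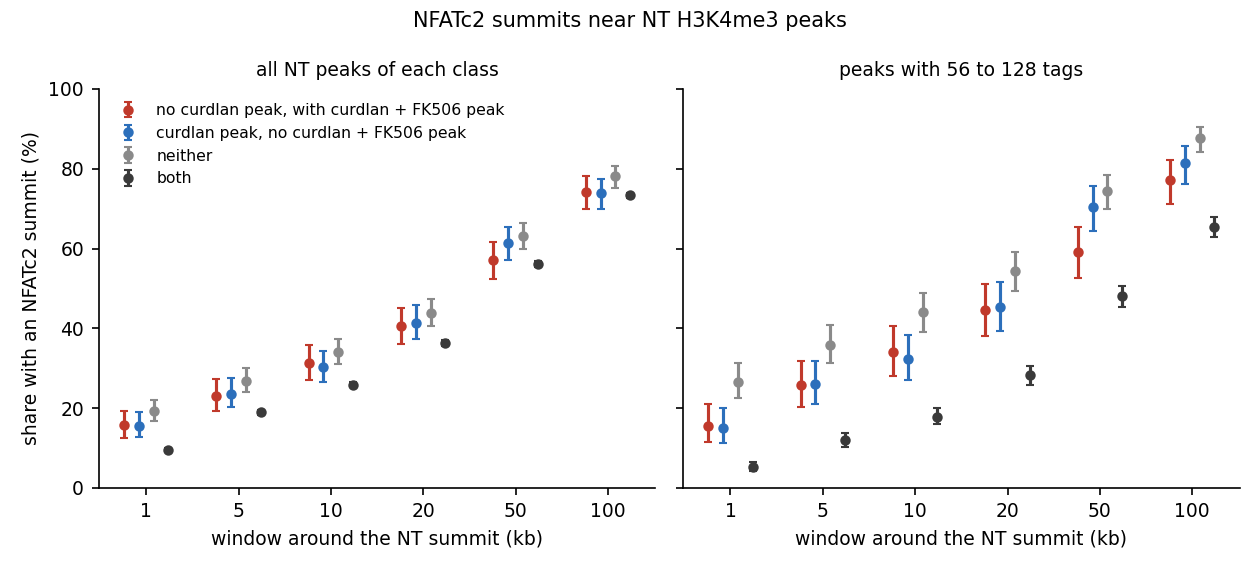
Share of NT peaks (%, linear axis) with an NFATc2 summit within 1 to 100 kb of the H3K4me3 summit, for curdlan-absent/FK506-present peaks (red), the opposite class (blue), peaks with neither (grey) and with both counterparts (black), with 95% Wilson intervals. All peaks are on the left and peaks with 56 to 128 NT tags on the right, and at 20 kb red and blue lie at 40.5% and 41.4% on the left and at 44.5% and 45.5% on the right.

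The 68 members with an NFATc2 summit inside the peak were mostly distal, 62 of the 346 beyond 1 kb of a TSS against 6 of the 89 at a TSS. They were longer (median 1741 against 1390 bp) and had more NT tags (119 against 78) than the other 367, and the part of peak length in holding a summit was not tested. Their ratio of curdlan with FK506 to NT density was the same, 0.868 against 0.872. The NFATc2 peaks inside them had a median of 98 tags (23 to 385) against 63 over all NFATc2 peaks, and 37 of the 68 had an NFATc2 p-value of 1e-10 or less. The median distance between the 2 summits was 248 bp.

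Several of the strongest NFATc2 peaks in these regions lay in introns, but not all. An NFATc2 peak of 315 tags lay within 1 kb of the TSS of a SNORA17 copy. Another of 307 tags lay between genes, with Tomm20 as the nearest protein-coding gene. In Lcp1, which encodes the leucocyte actin-bundling protein L-plastin, an NFATc2 peak of 385 tags was 235 bp from an H3K4me3 summit with 127 NT tags and 108 after curdlan with FK506. In Frmd4b, NFATc2 had 372 tags and H3K4me3 133 and 180, and in Atxn7l1, the region printed above, NFATc2 had 338 tags and H3K4me3 265 and 235. A second intronic region of Atxn7l1, with 115 and 186 H3K4me3 tags, held an NFATc2 peak of 110 tags. These H3K4me3 tags are not scaled for depth or peak length. The density ratio of curdlan with FK506 to NT was 0.907 at Lcp1 and 1.06 at Frmd4b. It was 0.664 at the printed Atxn7l1 region and 0.795 at the second. The NT fold was 7.28 at Lcp1, 5.98 at Frmd4b and 6.16 at this second region, all below the lowest curdlan fold of 7.75. It was 22.4 at the printed Atxn7l1 region. The NT FDR was 18.8% at Lcp1, 8.49% at Frmd4b and 4.31% at the second Atxn7l1 region. At Prkar1b and Gm15123, also printed above, the NFATc2 peaks were weaker, with 68 and 47 tags at 94 and 359 bp from the H3K4me3 summit.

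Several of these regions were nearest to genes of transcription and signalling. Among transcription factor genes, the tags in NT cells and after curdlan with FK506 were 113 and 124 in an intron of Mitf, 113 and 138 in an intron of Bach1, 187 and 161 at a site 122 kb upstream of Hif1a, 76 and 106 nearest to Xbp1, 108 and 57 in Tead1 and 76 and 61 in Tox2. NFATc2 tags were 54 at Mitf, 46 at Bach1, 193 at Hif1a and 54 at Xbp1. Among receptors and signalling genes, the H3K4me3 tags were 114 and 151 at Icosl with 112 NFATc2 tags, 179 and 202 nearest to Ifngr2, a chain of the interferon gamma receptor, with 43 NFATc2 tags, and 59 and 60 nearest to the adaptor gene Grb2 with 60. The phosphatase genes Dusp6, Dusp16, Ptpn18 and Ppp2r5e also had such a region nearest to them. The 6 at a TSS were those of Entpd7 (225 and 241 tags), Wdr63, S100a5, Gm15123, Gm16876 and a SNORA17 copy. These groupings were made after the members were known and were not tested. The H3K4me3 tags are again not scaled for depth or peak length. The density ratio of curdlan with FK506 to NT was 1.15 at Icosl, 1.03 at Mitf, 0.900 at Hif1a and 0.882 nearest to Ifngr2. It was 0.851 at Bach1, 0.843 at Entpd7 and 0.557 at Tead1, so higher tags were not always a higher density.

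Base composition of the members was close to that of the opposite class. In the 300 bp around the H3K4me3 summit the median GC content was 49.3% for members, 49.7% for the opposite class and 55.3% for peaks with both counterparts, and the median ratio of observed to expected CpG was 0.352, 0.332 and 0.570. Beyond 1 kb of a TSS these GC medians were 47.8%, 48.0% and 49.7%. GGAAAA was present in 26.7% of members (22.7 to 31.0%) and in 25.5% of all NT peaks, and TGACTCA in 5.75% (3.92 to 8.35%) of members, 6.64% of the opposite class and 3.47% of all NT peaks. GAGGAAGT was present in 2.99% (1.75 to 5.05%) of members and 2.10% of all NT peaks.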

How the data were processed

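The deposited peak lists of NFATc2 and of H3K4me3 in NT cells, after curdlan and after curdlan with FK506 were used, 1 ChIP library against 1 input each. Per the paper's methods, bowtie was used by the authors for mapping to mm9. Per the file headers, peaks of each library were called with MACS 1.4.2 at a p-value of 1e-05 with at most 1 tag per position, while the methods name an earlier MACS release. The deposited tags per peak are counts of reads and are not normalized. The deposited score is −log10 of the p-value multiplied by 10. The authors' fold enrichment is a ratio of peak tags to the local background. The deposited FDR is in percent.

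Overlaps, distances between summits and 95% Wilson intervals were computed with Python 3.11.15, numpy 2.4.6, pandas 2.3.3 and scipy 1.17.1, and sequences were read with pysam 0.24.0 and samtools 1.23.1 from the mm9 genome. Genes were those of Ensembl release 65 (GENCODE M1) on that build, and the TSS of any transcript counted. Tag density used the ChIP tag totals of the headers. The method was tested on simulated data, and 4 of 4 tests passed. Intervals cover counting error only, and tags are not independent molecules.

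The members and gene lists were chosen with earlier results of these data known. Genes were named by rule: the 15 members with most tags, members of the gene lists, members holding an NFATc2 summit (a part of which is named), and the 5 highest and 5 lowest density ratios. Some results that the rule covers are not reported here. Where the nearest TSS was a small RNA, the nearest protein-coding gene is given. Genes outside the rule are marked in the text or stand beside a distance to a curdlan peak. Alternatives changed the overlap, gap, p-value, FDR, windows and annotation.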

Additional observations from a re-analysis of the deposited data

How the results depend on the processing

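The number of members was 451 when an overlap of 50% of the NT peak was required, 390 when a curdlan peak within 1 kb counted as kept, 106 when NT and curdlan with FK506 peaks were limited to a p-value of 1e-10 or less, 177 at an FDR of 5% or less and 376 when NT peaks below the lowest curdlan fold were left out. The opposite class numbered 552, 442, 107, 216 and 445 under the same changes and remained the larger in each. The TSS share was 16.7% with the 1 kb gap, 16.6% and 26.0% with TSS windows of 0.5 and 2.5 kb and 14.7% for a TSS inside the peak. The share with an NFATc2 summit was 31.3% within 10 kb, 57.0% within 50 kb and 26.2% with NFATc2 peaks at a p-value of 1e-10 or less. Median NT tags were 123 at the stricter p-value and 110 at the FDR limit. The median NT fold was 13.1 and 12.2 there, and 11.7 without NT peaks below the lowest curdlan fold. The fold limit and the opposite class were added after the data were seen. No paired analysis was possible because each condition had 1 library and no test was made. With 1 library per condition, depth and condition cannot be told apart.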
